A study of Mus musculus with 3 samples.

Results

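Integrins and laminins are the receptors and the ligands of cell attachment to the basement membrane. The genes described here were all those of the deposited table whose symbol starts with Itga or Itgb followed by a digit or letter, or with Lama, Lamb or Lamc followed by a digit. The rule found 38 of 39179 genes, of which 27 encode integrin subunits and 11 encode laminin chains. The rule used only names and no levels, but the members were chosen with earlier results of these data known.

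RNA had been sequenced from E14tg2a mouse embryonic stem cells (ESCs), which are grown on gelatin in serum medium and are held undifferentiated by the cytokine LIF (Leukaemia Inhibitory Factor). There was 1 library of each of 3 lines: cells with a stable PiggyBac transgene that overexpresses Zmym2 (OE), a clone in which Cas9-induced frameshifts disrupted both Zmym2 alleles (KO), and unmodified E14tg2a (WT). Zmym2 encodes a zinc finger protein, and the study asked how its loss or excess affects the ESC transcriptome. OE cells were transfected and drug-selected and the KO line is 1 clone. No library is labelled as an empty-vector control, so these steps cannot be told apart from the Zmym2 level. The paper describes Cas9 clones that received a Zmym2 or an empty vector transgene, and whether the KO library came from cells with an empty vector is not stated.

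The line descriptions stored with the OE and KO libraries are exchanged relative to their titles, and the names used here follow the titles. Zmym2 itself had 57139 normalised counts in OE, 4370 in KO and 7956 in WT, so the excess of its transcript runs with the title. The KO level, at 0.549 of WT, is only a weak check of the knockout, because a frameshift may leave the transcript in place. A deposited sheet of other genes, not used here, has KO and WT exchanged in one row of headings relative to the gene table, but its ratios to WT divide by the values that the gene table gives as WT. The names used here follow the gene table and the titles, and if that row of headings were right, every KO and WT value below would change places. A normalised count is a read count divided by a size factor for sequencing depth, and it is not corrected for gene length. The libraries held between 41840774 reads (OE) and 50120551 reads (WT) in genes. With 1 library per line, differences between lines could not be held against replicates, and p-values are not given. Intervals are exact 95% intervals (Poisson for levels, Clopper-Pearson for ratios) that cover counting error only.

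All 8 ESC markers examined (such as Pou5f1, Nanog and Sox2) were present in the 3 libraries, with a summed level of 141996 normalised counts in OE, 171236 in KO and 188833 in WT. Markers of other cell types were much lower but not equal. The 8 fibroblast markers summed to 4966 normalised counts in OE, 510 in KO and 1172 in WT. Of the 6 that averaged 50 normalised counts or more, 3 were at least 2-fold higher in OE than in WT, of which 2 (Dcn and Col3a1) averaged that level only through OE, and in KO 1 was higher and 3 were lower. Over all genes that averaged 50 or more, 9.74% were higher and 3.12% lower in OE. In KO the shares were 2.43% and 3.09%. Postn and Col3a1 were at 0 in KO and Lum was at 0 in WT. The extraembryonic endoderm markers summed to 2435, 834 and 904 normalised counts in OE, KO and WT, and the 5 muscle markers to 2037, 528 and 495. These sums were not shared evenly by the markers. Of those averaging 50 or more, 1 of 5 endoderm and 1 of 3 muscle markers were at least 2-fold higher in OE than in WT, and none was lower. In KO, 1 of the 3 muscle markers was higher than in WT and 1 was lower, and no endoderm marker was either. The 3 keratinocyte markers (Krt5, Krt14 and Trp63) summed to 68.2 normalised counts in OE, 20.2 in KO and 18.0 in WT. Fibroblasts, endoderm, muscle and keratinocytes also make several of the genes described here, and the part of such cells in the differences was not tested. In bulk RNA, more cells of a type and more transcript per cell cannot be told apart.

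Integrins are heterodimers of 1 alpha and 1 beta subunit that span the plasma membrane, bind matrix proteins or other cells outside and couple to the actin cytoskeleton inside. The subunit encoded by Itgb1 pairs with the most alpha subunits, and the alpha subunit largely sets the ligand. Laminins are cross-shaped trimers of an alpha, a beta and a gamma chain, and they form the sheet on which the basement membrane is built. In the early mouse embryo laminin chains and Itgb1 are needed for basement membranes and for survival beyond implantation.

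Transcripts of the set took a larger share of the OE library. Its members took 0.320% of all gene reads in OE, 0.195% in KO and 0.206% in WT. At least 1 read was counted for 35 members in OE, 34 in KO and 35 in WT, and 25 members (16 integrin, 9 laminin) were at level, which here means that the 3 libraries averaged 50 normalised counts or more. Among those 25, 11 were at least 2-fold higher in OE than in WT and 2 were at least 2-fold lower (pseudocount 1). Of the 11, 3 (Lamb3, Lama4 and Itgb8) were at level only through OE, so their calls were partly built into the filter. Of the 12896 genes at that level, 9.74% were 2-fold higher and 3.12% were 2-fold lower in the same comparison.

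The 5 promoters shown are those of members at least 4-fold higher in OE than in WT, or at least 2-fold lower, for which the RefSeq promoter table (GRCm38.p6) had an entry. Each runs 5′ to 3′ from 250 bases before to 50 bases after the most upstream RefSeq start. For Lamb3 and Itgb8 the window lies wholly inside the gene span given below, which came from GENCODE M21. Capitals mark a GC box (GGGCGG) in Itga3 and a CCAAT box (CCAAT) in Itgb8.
Itga3 (chr11:95076665-95076964, - strand): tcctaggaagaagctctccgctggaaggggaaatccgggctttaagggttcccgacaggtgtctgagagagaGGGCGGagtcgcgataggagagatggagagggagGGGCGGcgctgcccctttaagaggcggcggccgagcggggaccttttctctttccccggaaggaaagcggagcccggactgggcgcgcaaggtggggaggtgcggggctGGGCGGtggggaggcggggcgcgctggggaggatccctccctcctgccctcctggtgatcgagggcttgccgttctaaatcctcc
Itga8 (chr2:12301895-12302194, - strand): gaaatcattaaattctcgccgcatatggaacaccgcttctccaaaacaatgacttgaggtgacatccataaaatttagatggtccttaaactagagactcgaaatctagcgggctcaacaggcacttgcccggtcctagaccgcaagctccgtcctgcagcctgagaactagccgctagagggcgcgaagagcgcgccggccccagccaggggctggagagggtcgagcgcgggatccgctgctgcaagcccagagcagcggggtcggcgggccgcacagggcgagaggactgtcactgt
Itgb8 (chr12:119238227-119238526, - strand): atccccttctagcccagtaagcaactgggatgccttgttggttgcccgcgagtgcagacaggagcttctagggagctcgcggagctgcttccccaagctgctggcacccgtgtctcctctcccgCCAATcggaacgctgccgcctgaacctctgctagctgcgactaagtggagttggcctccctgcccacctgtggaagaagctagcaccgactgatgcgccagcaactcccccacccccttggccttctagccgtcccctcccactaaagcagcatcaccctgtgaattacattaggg
Lamb3 (chr1:193301744-193302043, + strand): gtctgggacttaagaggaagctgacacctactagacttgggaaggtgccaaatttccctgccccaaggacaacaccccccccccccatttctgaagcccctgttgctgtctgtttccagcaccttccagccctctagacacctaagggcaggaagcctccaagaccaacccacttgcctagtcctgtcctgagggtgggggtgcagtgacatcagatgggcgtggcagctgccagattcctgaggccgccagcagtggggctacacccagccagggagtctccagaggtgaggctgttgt
Itgb7 (chr15:102231886-102232185, - strand): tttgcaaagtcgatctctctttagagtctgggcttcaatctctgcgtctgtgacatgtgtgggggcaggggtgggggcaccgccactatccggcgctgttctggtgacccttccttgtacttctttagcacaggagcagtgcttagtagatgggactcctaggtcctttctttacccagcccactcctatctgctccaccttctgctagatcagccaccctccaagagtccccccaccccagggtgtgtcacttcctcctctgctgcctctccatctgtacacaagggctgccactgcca
The Itga3 promoter held 3 GC boxes, at 178, 144 and 35 bases before the start, and the Itgb8 promoter held 1 CCAAT box, at 126 bases before it. In all, 24 of the 38 members had an entry, and Lama1 and Lama4, for example, did not. Of the 15 entries for members past the level minimum, 8 held a GC box and 2 a CCAAT box on either strand, and over all 27025 promoters of this length 35.9% and 38.0% did. The AP-1 motif (TGANTCA) was in 1 of the 15 (Itga9) and in 7.92% of all promoters. The TEAD motif (GGAATG) was in 1 of the 15 (Itgb1) and in 14.7% of all. The TATA box (TATAAA) and the T-box motif (AGGTGTGA) were in 0 of the 15, against 14.2% and 1.28% of all promoters. These are matches of letters in a window, and a match or its absence says nothing of binding.

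Of the laminin-binding integrins, 3 of 4 subunits were more than 2-fold higher in OE (9.74% of all genes at level), while the fourth, Itga6, was nearly level. Itga3 encodes the alpha subunit that binds the laminins with alpha3 and alpha5 chains (GRCm38 chromosome 11, 95044474 to 95076801, minus strand). It had 20322 normalised counts in OE, 2427 in KO and 4782 in WT. The ratio to WT was 4.25 (4.12 to 4.38) in OE and 0.508 (0.483 to 0.533) in KO, just short of 2-fold. Itga3 thus spanned 8.37-fold between OE and KO with WT in between. Itga6, the other main laminin receptor of ESCs (chromosome 2, 71745616 to 71858416, plus strand), had 10761 normalised counts in OE, 10200 in KO and 10580 in WT. Its ratios were 1.02 (0.990 to 1.05) and 0.964 (0.938 to 0.990). The receptors thus differed from each other, with Itga3 far above WT in OE and below it in KO, and Itga6 close to WT in both.

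Itgb4, the beta subunit that pairs with alpha6 and anchors keratin filaments in epithelia, had 985 normalised counts in OE, 304 in KO and 393 in WT. It was 2.51-fold higher in OE than in WT (2.23 to 2.82). Itga7, a laminin-binding alpha subunit best known from muscle, had 283, 91.9 and 128 normalised counts in OE, KO and WT and was 2.22-fold higher in OE (1.79 to 2.75). Both had ratios below 1 in KO, at 0.774 for Itgb4 (0.665 to 0.899) and 0.721 for Itga7 (0.546 to 0.947).

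**Figure D1:**
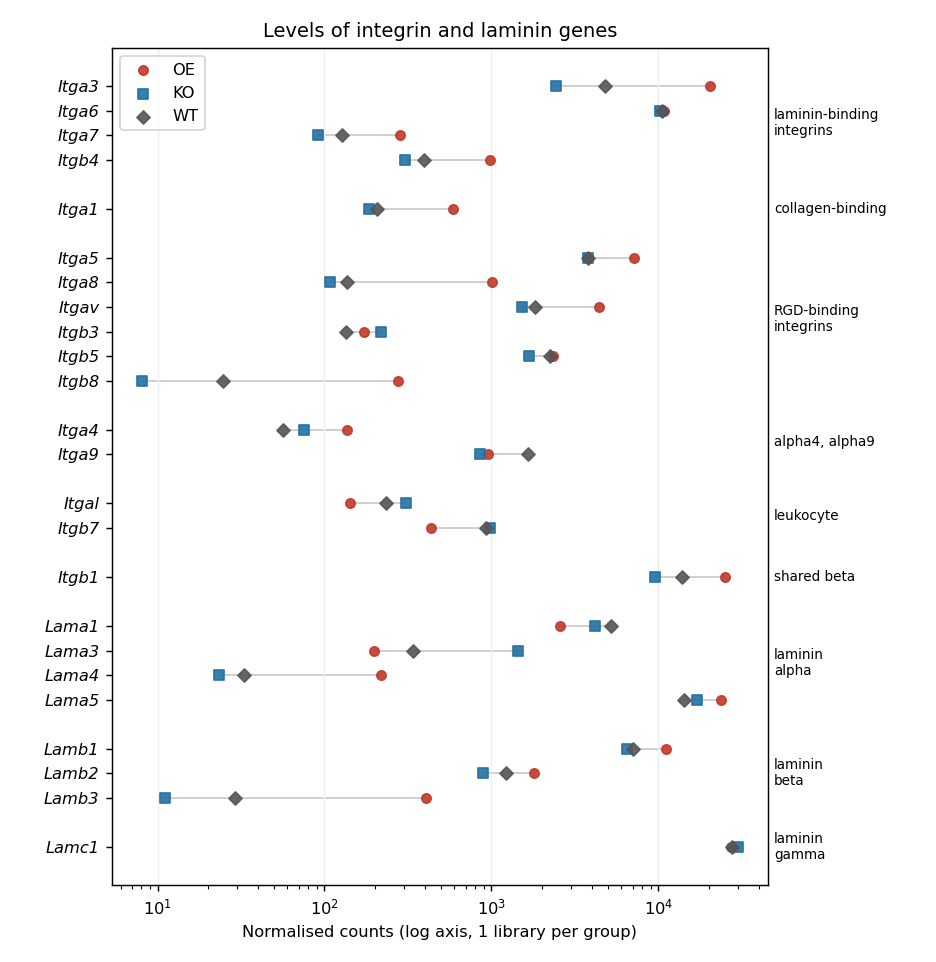
Normalised counts (log axis, 1 library per line) of 24 of the 25 members at level, grouped by role, with OE as circles, KO as squares and WT as diamonds. The OE point lies farthest right for most members, as for Itga3 at 20322, and Itga6 and Lamc1 show 3 points almost on top of each other.

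Itgb1, the shared beta subunit, was the most abundant beta gene per kb of exon in each library. It lies on chromosome 8 from 128685654 to 128733200 (plus strand). It had 25187 normalised counts in OE, 9483 in KO and 13861 in WT, so the OE library was 1.82-fold above WT (1.78 to 1.86) and the KO library at 0.684 of it (0.667 to 0.702). Neither reached 2-fold against WT, but OE was 2.66-fold above KO. The 35 genes within 5 Mb of Itgb1 had median ratios to WT of 0.865 in OE and 0.804 in KO. This was not confined to the neighbourhood, because the 686 genes at level on chromosome 8 had medians of 0.883 and 0.847. On the other chromosomes that hold members, the medians lay between 0.953 and 1.03 in OE and between 0.966 and 1.01 in KO. The part of the chromosome 8 level in the Itgb1 ratio was not tested.

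Of the RGD-binding integrins, which recognise an arginine-glycine-aspartate motif in fibronectin, vitronectin and related proteins, 3 of the 6 subunits at level were 2-fold higher in OE and none was 2-fold lower. The shares over all genes were 9.74% and 3.12%, and Itgb8, among the 3, was at level only through OE. Itga8, the receptor subunit for nephronectin (chromosome 2, 12106632 to 12301922, minus strand), had 1005 normalised counts in OE, 108 in KO and 137 in WT. That is 7.33-fold above WT in OE (6.15 to 8.80) and 0.789 of WT in KO, where the interval includes 1 (0.609 to 1.02). Itgav, the alpha subunit that pairs with most RGD-binding beta subunits, had 4396 normalised counts in OE, 1525 in KO and 1823 in WT. It was 2.41-fold higher in OE (2.28 to 2.55) and at 0.837 of WT in KO (0.782 to 0.896).

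Itgb8, which pairs only with alphaV and takes part in activating latent TGF-beta, was nearly silent outside OE (chromosome 12, 119158022 to 119238802, minus strand). It had 252 reads in OE, 8 in KO and 26 in WT, or 277, 8.08 and 24.6 normalised counts. The OE ratio to WT was 11.3 (7.53 to 17.6) and the KO ratio 0.329 (0.129 to 0.748). Itgb8 passed the level minimum only through OE, as did Lamb3 and Lama4, so their difference from the other lines was partly built into the filter.

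Itgb5 and Itgb3, which also pair with alphaV, stayed within 2-fold of WT in OE. Itgb5 had 2338 normalised counts in OE, 1685 in KO and 2231 in WT, with ratios of 1.05 (0.988 to 1.11) in OE and 0.755 (0.709 to 0.804) in KO. Itgb3, a vitronectin receptor subunit, was highest in KO, at 172 normalised counts in OE, 219 in KO and 134 in WT, and its KO ratio was 1.63 (1.32 to 2.03). Itga5, the fibronectin receptor, had 7122 normalised counts in OE, 3814 in KO and 3792 in WT. Itga5 was thus 1.88-fold above WT in OE (1.81 to 1.95) and level with WT in KO (1.01, 0.962 to 1.05), where the sign of its small difference depends on the scaling.

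**Figure D2:**
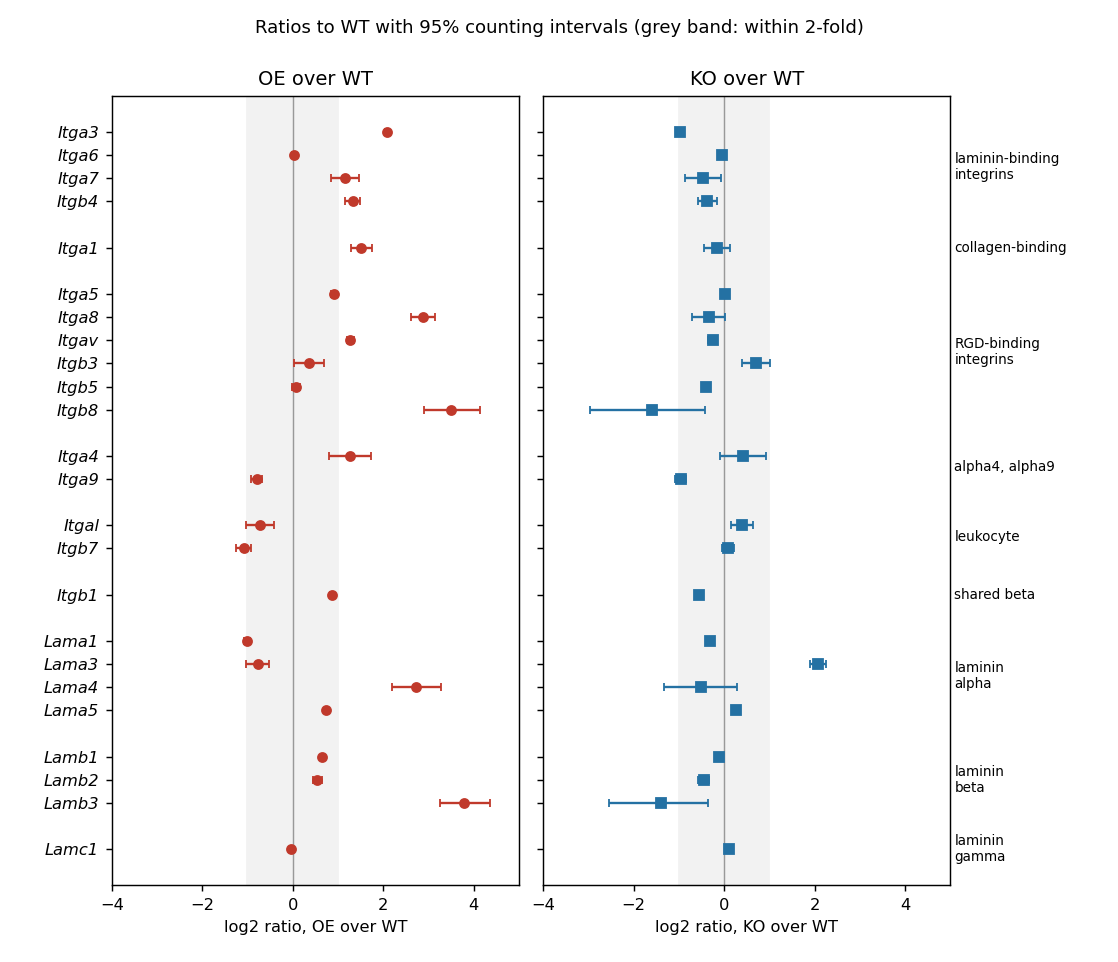
Log2 ratios to WT of 24 of the 25 members at level, OE on the left and KO on the right, with 95% counting intervals as bars and a grey band for differences within 2-fold. In OE, Lamb3, Itgb8, Itga8, Lama4 and Itga3 lie farthest to the right, and in KO most points lie inside the band, apart from Lama3 on the right and Itgb8 and Lamb3, with wide intervals, on the left.

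Among the collagen-binding integrins only Itga1 was at level. It had 588 normalised counts in OE, 184 in KO and 205 in WT, 2.87-fold above WT in OE (2.44 to 3.37) and 0.897 of WT in KO (0.732 to 1.10). The Pelo gene lies inside Itga1 on the same strand, so reads in shared sequence cannot be told apart. Other members at level also overlap annotated genes on the same strand, 2 each for Lamb3 and Itga6. Itga5, Itga7, Itga8, Lama3, Lama5 and Lamc1 overlap 1 each. Itga11, another collagen receptor subunit, was under the level minimum with 50 reads in OE, 2 in KO and 13 in WT. Its OE ratio to WT was 4.48 (2.40 to 8.99).

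The alpha4 and alpha9 subunits, which bind VCAM1 and tenascin among others, differed from each other. Itga4 had 136 normalised counts in OE, 75.8 in KO and 56.7 in WT, with ratios of 2.41 (1.75 to 3.33) in OE and 1.34 (0.939 to 1.91) in KO. Itga9 was highest in WT, at 960 normalised counts in OE, 857 in KO and 1662 in WT. Its ratios were 0.577 (0.532 to 0.627) in OE and 0.515 (0.474 to 0.560) in KO, so it lay below WT in both lines without reaching 2-fold.

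Both integrin genes at level in the group called leukocyte here lay below WT in OE, unlike most members. Itga4, whose subunit pairs with that of Itgb7 on lymphocytes, was grouped apart and was 2.41-fold above WT in OE (1.75 to 3.33). Itgb7, which pairs with alpha4 or alphaE on lymphocytes (chromosome 15, 102215995 to 102231944, minus strand), had 437 normalised counts in OE, 984 in KO and 927 in WT. It was at 0.471 of WT in OE (0.418 to 0.530) and close to WT in KO (1.06, 0.970 to 1.16). Itgal, the alpha subunit of the ICAM receptor LFA-1, had 142 normalised counts in OE, 308 in KO and 234 in WT, a ratio of 0.606 in OE (0.486 to 0.752) and 1.31 in KO (1.11 to 1.56). Both were more than 2-fold lower in OE than in KO. The 7 leukocyte markers found summed to 346 normalised counts in OE, 398 in KO and 321 in WT, and 3 of them were at level, with a median log2 ratio of -0.59 in OE over WT, 0.84 in KO over WT and -1.43 in OE over KO. Cd3e, of the T cell receptor complex, had 59.4, 162 and 89.8 normalised counts in OE, KO and WT. Cd79a, of the B cell receptor, had 31.9, 104 and 54.8, so both had the same order of lines as Itgb7 and Itgal. But Cd79a was at level only through KO, so its high KO value and its part in these medians were partly built into the filter. Coro1a, a coronin of blood cells, ran the other way with 227, 84.9 and 157. The part of leukocyte transcripts in the Itgb7 and Itgal differences was not tested. Ptprc, the general leukocyte marker, had 9.90 normalised counts in OE, 3.03 in KO and 1.89 in WT, and Csf1r had 2.20, 2.02 and 1.89. A count of 0 allows up to 3 reads, which is 3.30 normalised counts in OE, 3.03 in KO and 2.83 in WT, so Ptprc was at or under this floor in KO and WT, and Csf1r was under it in all 3 libraries.

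The 13 members below the level minimum were mostly tissue-restricted integrins. Itgax, Itgad and Itgb2l, of the leukocyte group, had 0 reads in all 3 libraries, which allows up to the floor of 3 reads in each. Itga2, a collagen receptor subunit, had 13 reads in OE, 0 in KO and 2 in WT. Itgb6, an epithelial partner of alphaV, had 6 reads in OE, 1 in KO and 1 in WT. Itga10, Itga2b, Itgam, Itgae and Itgb2 lay between 5.67 and 50.6 normalised counts in all libraries. Itga2b is the platelet integrin subunit, and the megakaryocyte markers Pf4, Gp1ba and Gp9 were at 0 in the 3 libraries. Lama2 had 27.5, 9.09 and 19.8 normalised counts in OE, KO and WT, and Lamc3 had 9.90, 3.03 and 2.83.

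Of the 9 laminin chains at level, 3 were at least 2-fold higher in OE than in WT (among them Lamb3 and Lama4, at level only through OE) and 1 was lower (Lama1), against 9.74% and 3.12% of all genes. Lamb3, which encodes the beta chain of a laminin that anchors epithelial cells (chromosome 1, 193207699 to 193343878, plus strand), had 366 reads in OE, 11 in KO and 31 in WT, or 403, 11.1 and 29.3 normalised counts. Its OE ratio to WT was 13.8 (9.52 to 20.5) and its KO ratio 0.379 (0.172 to 0.775). Lamb3 thus stood highest in OE and rested on few reads in the other lines.

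Lama3, the alpha chain of the same trimer, did not follow Lamb3. It had 199 normalised counts in OE, 1435 in KO and 341 in WT. In OE it was at 0.584 of WT (0.486 to 0.700), and in KO it was 4.21-fold above WT (3.75 to 4.74). Lama3 was the only member at level that was at least 2-fold higher in KO than in WT. Per kb of exon, the ratio of Lama3 to Lamb3 was 0.304 in OE, 79.5 in KO and 7.17 in WT, so Lamb3 was the more abundant of these partner chains in OE and Lama3 in KO and WT.

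Lama1 and Lama5, the alpha chains that dominate early embryonic laminins, lay on opposite sides of WT in OE. Lama1 (chromosome 17, 67697259 to 67822647, plus strand) had 2577 normalised counts in OE, 4158 in KO and 5177 in WT. Its OE ratio of 0.498 (0.474 to 0.523) lies at the 2-fold edge, and Lama1 was no longer counted as lower when the libraries were scaled to total gene reads, housekeeping genes or Gapdh. Lama5 had 23659 normalised counts in OE, 16966 in KO and 14147 in WT, 1.67-fold above WT in OE (1.64 to 1.71) and 1.20-fold in KO (1.17 to 1.23). Per kb, Lama1 was at 0.128 of Lama5 in OE, 0.288 in KO and 0.430 in WT. Lama4, a chain of vascular and mesenchymal basement membranes, had 198 reads in OE, 23 in KO and 35 in WT and was 6.59-fold above WT in OE (4.58 to 9.73).

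The beta1 and gamma1 chains form the core of most laminins. Lamb1 had 11150 normalised counts in OE, 6499 in KO and 7065 in WT, a ratio of 1.58 in OE (1.53 to 1.63) and 0.920 in KO (0.890 to 0.951). Lamb2, an alternative beta chain, had 1792, 895 and 1226 normalised counts in OE, KO and WT, a ratio of 1.46 in OE (1.36 to 1.57) and 0.730 in KO (0.670 to 0.796). Lamc1 was almost level, at 27231 normalised counts in OE, 29881 in KO and 27780 in WT. The ratio of Lamc1 to WT was 0.980 in OE (0.964 to 0.997) and 1.08 in KO (1.06 to 1.09), and the sign of the small OE difference depends on the scaling. Lamc1 and Itga6 were thus the steady members of the ligands and receptors.

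**Figure D3:**
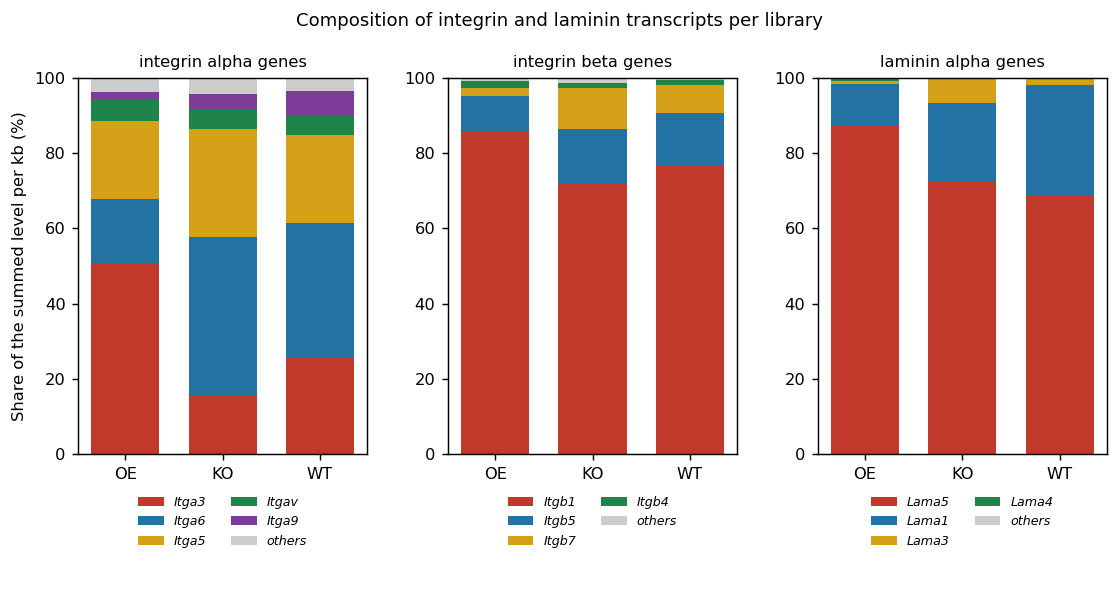
Share (%) of each gene in the summed level per kb of exon of the integrin alpha, integrin beta and laminin alpha genes, with 1 bar each for OE, KO and WT. Itga3 takes 50.8% of the alpha integrin sum in OE, 15.8% in KO and 25.6% in WT, and Lama5 takes 87.2% of the alpha laminin sum in OE, 72.5% in KO and 68.5% in WT.

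Levels of different genes were compared per kb of merged exon, and parts of their order depend on the length used. The first places among the alpha integrins differed between the lines. In OE it was Itga3 (3559 normalised counts per kb), Itga5 (1444), Itga6 (1192) and Itgav (409). In KO it was Itga6 (1130), Itga5 (773), Itga3 (425) and Itgav (142). In WT it was Itga6 (1172), Itga3 (837), Itga5 (769) and Itga9 (216). The counting intervals of neighbours in these orders did not overlap, but they do not cover the choice of length. With the longest transcript as length, Itga6 passed Itga5 in OE (2497 against 1613 per kb) and Itgav passed Itga9 in WT (258 against 237). With both lengths Itga3 led in OE, came behind Itga6 and Itga5 in KO, and came behind Itga6 alone in WT. Per kb, the ratio of Itga3 to Itga6 was 2.98 in OE, 0.376 in KO and 0.714 in WT, and with the length of the longest transcript it was 1.67, 0.211 and 0.401 in OE, KO and WT.

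The sum over the alpha integrin genes was 7001 normalised counts per kb in OE, 2697 in KO and 3277 in WT, and the sum over the beta genes was 7187, 3240 and 4442 in the same lines. Both totals were thus highest in OE and lowest in KO, with either length. Which total was larger depends on the length: per kb of merged exon the alpha total was below the beta total in each line, and with the longest transcript it was above it, at 9433 against 7704 in OE, 4226 against 3459 in KO and 4950 against 4750 in WT. Itgb1 made up 85.9% of the beta sum in OE, 71.7% in KO and 76.5% in WT. Itgb5 was second in each library, with 9.15% in OE, 14.6% in KO and 14.1% in WT. The alpha laminin total differed less, with 2382 normalised counts per kb in OE, 2055 in KO and 1813 in WT. Lama5 led the alpha chains with 87.2% in OE, 72.5% in KO and 68.5% in WT. Lamb1 led the beta chains with 76.0% in OE, 81.5% in KO and 77.6% in WT. The leading alpha and beta chains thus kept their rank, while the less abundant Lamb3 and Lama4 were 36.2-fold and 9.38-fold higher in OE than in KO, and Lama3 was at 0.139 of KO in OE.

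Read as families, the integrin genes at level had a median log2 ratio to WT of 1.03 in OE and -0.30 in KO, and the laminin genes 0.66 in OE and -0.32 in KO. The KO medians depend on the level minimum: that of the integrins was -0.05 with none, and that of the laminins was -0.12 with a minimum of 200. The median of all 12896 genes was -0.02 in OE and -0.03 in KO. In OE, 8 of the 16 integrin genes were at least 2-fold higher than WT and 1 (Itgb7) was lower. The shares over all genes were 9.74% and 3.12%, and Itgb8, among the 8, was at level only through OE. By any amount, 19 of the 25 members lay above WT, as did 6159 of the 12896 genes. In KO, 1 member was at least 2-fold higher than WT (Lama3) and 2 were lower (Itgb8 and Lamb3), against 2.43% and 3.09% of all genes. The other 22 lay within 2-fold. By any amount, 17 of the 25 were below WT, as were 7132 of the 12896 genes. Both KO genes called lower rest on 8 and 11 reads in KO, and 0 members were lower when only KO and WT had to reach the level minimum.

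The OE and KO ratios share the WT library, so their directions are not independent of each other. Set directly against KO, OE exceeded KO at least 2-fold in 12 members, and 3 (Lama3, Itgb7 and Itgal) were lower, against 12.9% and 5.47% of all genes. Among members at level, the largest ratios of OE to KO were those of Lamb3 (36.2, 20.02 to 73.3) and Itgb8 (34.3, 17.2 to 80.4), both at level only through OE. Lama4, also among the 12, was at level only through OE too. Lamb2, at 2.002-fold (1.84 to 2.17), was at the edge and was not counted with TMM factors.

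**Figure D4:**
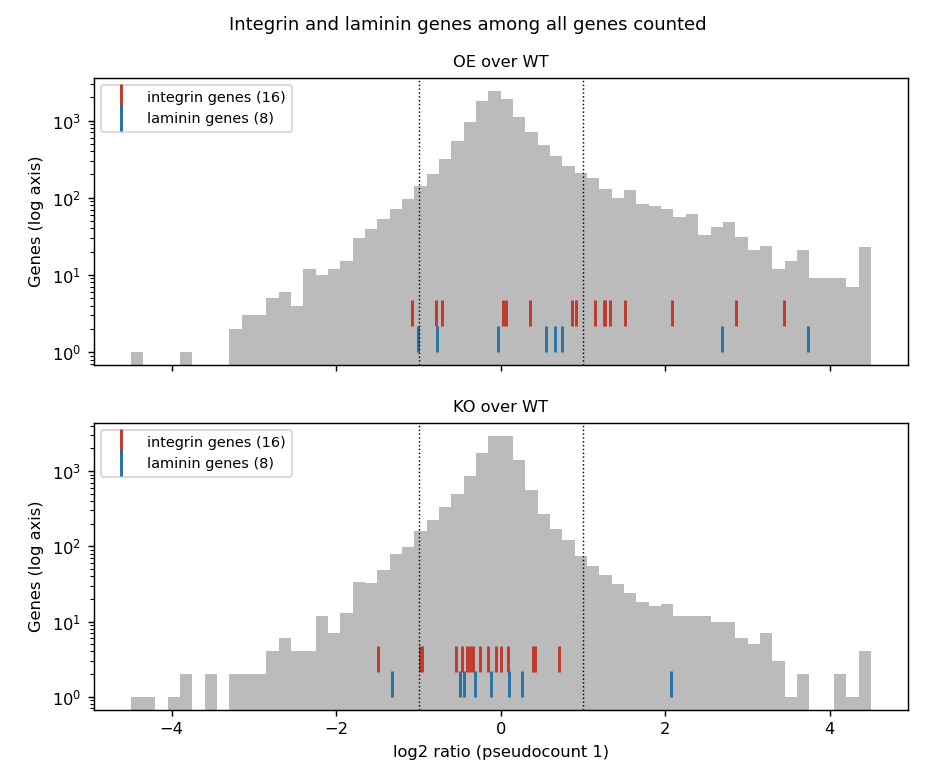
Number of genes (log axis) by log2 ratio to WT for all 12896 genes at level, OE above and KO below, with 16 integrin and 8 laminin genes as ticks and dotted lines at 2-fold. The outermost bins hold all genes beyond them. In OE 10 ticks lie right of the upper line and 2 left of the lower one, and in KO 1 lies right and 2 left.

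Laminins are held in the basement membrane by nidogens, perlecan, agrin and type IV collagen. The list of partners used here also held Sparc and Col18a1. Of its 10 genes at level, 5 were at least 2-fold higher in OE than in WT and none was lower (9.74% and 3.12% of all genes). In KO 3 were lower and none was higher (3.09% and 2.43%). The 5 were Col4a1, Col4a2, Col4a5, Col4a6 and Sparc. Sparc was 2.55-fold above WT in OE (2.48 to 2.62) and 1.02-fold in KO (0.992 to 1.06). Col4a1, a main chain of type IV collagen, had 6451 normalised counts in OE, 976 in KO and 1992 in WT. Col4a2, its partner chain, had 4576, 469 and 1105 in the same lines. Col4a5, a minor chain, had 563 in OE, 7.07 in KO and 40.6 in WT, and Col4a6 had 150, 4.04 and 5.67. Both were at level only through OE, so 2 of the 5 higher calls were partly built into the filter. Col4a5 was also 1 of the 3 called lower in KO, where it rested on 7 reads against 43 in WT. These type IV collagen genes were thus higher in OE, whereas Nid2, which encodes a nidogen, was nearly level at 21313 normalised counts in OE, 19075 in KO and 19998 in WT. Col4a1 and Col4a2 lay above WT by 3.24-fold (3.08 to 3.41) and 4.14-fold (3.88 to 4.42) in OE. In KO they were at 0.490 (0.454 to 0.529) and 0.424 (0.380 to 0.473) of WT, so Col4a1 was at the 2-fold edge. Both lie on chromosome 8, whose genes had a median ratio to WT of 0.847 in KO. The part of that level in their KO ratios was not tested.

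Among 9 laminin receptors at level that are not integrins, 2 were 2-fold higher in OE (Sdc2 and Sgce) and 1 was 2-fold lower in KO (Sgce), against 9.74% and 3.09% of all genes. Sdc2, a syndecan, had 928 normalised counts in OE, 150 in KO and 237 in WT. Sgce, a sarcoglycan, had 738, 148 and 315 in OE, KO and WT. Dag1, which encodes dystroglycan, was nearly level, at 20084 in OE, 21215 in KO and 20213 in WT.

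Of 13 other integrin ligands at level, 7 were 2-fold higher in OE than in WT and none was lower (9.74% and 3.12% of all genes), and in KO 1 was higher and 2 were lower (2.43% and 3.09%). Tnc and Madcam1 were at level only through OE, and Egfl6, the 1 higher in KO, only through KO. Thbs1, which encodes thrombospondin, had 25317 normalised counts in OE, 352 in KO and 1946 in WT, 13.01-fold above WT in OE (12.4 to 13.6). Tnc, which encodes tenascin-C, had 926, 4.04 and 93.5 in OE, KO and WT. Cyr61, a matricellular ligand of alphaV integrins, had 10265, 1341 and 1888. These ligands had their lowest level in KO, but Egfl6, a basement membrane ligand of alpha8, was highest there, with 44 reads in OE, 98 in KO and 18 in WT. Npnt, the nephronectin gene and ligand of alpha8, had 760 in OE, 137 in KO and 164 in WT, while Fn1, which encodes fibronectin, was 1.23-fold above WT in OE (1.21 to 1.24).

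**Figure D5:**
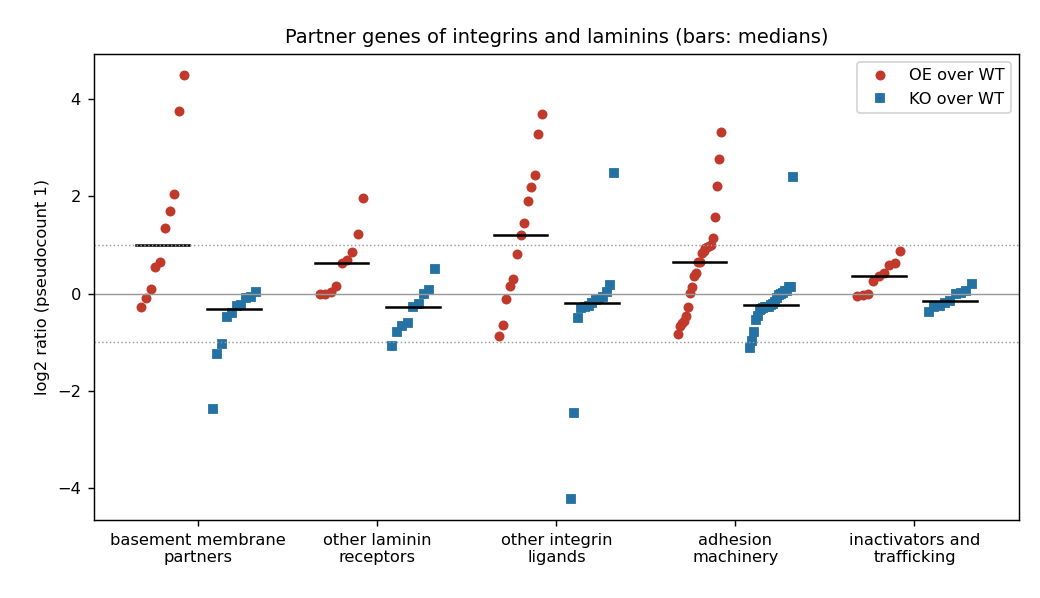
Log2 ratios to WT (pseudocount 1) of the genes at level in 5 partner lists, OE as circles and KO as squares, with black bars for the medians and dotted lines at 2-fold. The OE medians run between 0.36 and 1.20 and the KO medians between -0.33 and -0.16.

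Inside the cell, integrins are activated and coupled to actin by talin, kindlins, the ILK complex, vinculin and other adhesion proteins. Of 23 such genes at level, 5 were 2-fold higher in OE than in WT and none was lower (9.74% and 3.12% of all genes), and in KO 1 was higher and 1 was lower (2.43% and 3.09%), so the KO counts were near the share over all genes. Parva, of the ILK complex, had 4440 normalised counts in OE, 204 in KO and 445 in WT, 9.98-fold above WT in OE (9.07 to 11.0). Fermt1, a kindlin of epithelia, had 1393, 168 and 202 in OE, KO and WT, and Zyx, which encodes zyxin, had 15134, 1648 and 3239. These machinery genes were higher in OE, but Fermt3, the kindlin of blood cells, was highest in KO, with 33.0 normalised counts in OE, 265 in KO and 49.1 in WT. Fermt3 was the 1 called higher in KO and was at level only through KO. Of 9 inactivators and trafficking genes at level, 0 were 2-fold apart from WT in either line, with Cd81 the farthest at 1.83-fold in OE (1.77 to 1.90). The lists were described by counts and medians only, and nothing particular to any of them was tested.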

How the data were processed

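RNA-seq values of 3 libraries of E14tg2a ESCs were used, 1 each of Zmym2 OE, KO and WT. The authors removed ribosomal RNA, prepared strand-specific libraries, trimmed adaptors (TrimGalore), aligned to GRCm38 (TopHat2) and counted per gene (featureCounts). The annotation release was not given in the sources used here. Signal values, as deposited, are gene counts after division by DESeq2 size factors, as the authors describe. In each library 100% of values were whole multiples of 1 read (tolerance 1e-06), so they carry no length normalisation, although the paper's methods mention one, and whole reads were recovered from them. Another 4 columns of levels were left out. A deposited sheet also holds the authors' own ratios to WT for other genes, and these were not used either. Repeat families were not analysed here.

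Genes at least 2-fold apart were counted with a pseudocount of 1 among the 12896 genes at level (50 normalised counts or more, averaged over the 3 libraries). Ratios printed carry no pseudocount. A count of 0 allows up to 3 reads. No molecular identifiers were counted, so reads may repeat molecules, and with 1 library per line no count model was fitted. Lengths and positions came from GENCODE M21 and promoters from RefSeq. Every member is accounted for. Members past the level minimum are named with all values, except for 1 that enters the counts and medians but is not reported here, and of each partner list up to 4 genes with the largest ratios, with a few further genes (Nid2, Dag1, Npnt, Fn1 and others) chosen after their values were seen. The members and lists were chosen with earlier results of these data known. Symbols not matched were Tns2 and Adgre1, and Cyr61 and Ctgf stand for Ccn1 and Ccn2. Alternatives were scaling (total gene reads, 11 housekeeping genes, Gapdh, TMM factors), pseudocounts, level minimums, folds and the length used. The counting was tested on simulated data. TMM factors came from edgeR 4.0.16 in R 4.3.3, and all else from Python 3.11.15 (scipy 1.17.1, pandas 2.3.3, numpy 2.4.6), with figures drawn in matplotlib 3.10.9.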

Additional observations from a re-analysis of the deposited data

How the results depend on the processing

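No paired analysis was possible because each line has 1 library, and leave-one-out values do not exist for the same reason. Of 75 log2 ratios of single members, 2 changed sign under another scaling (Itga5 in KO over WT, Lamc1 in OE over WT), and of the 31 with a size of at least 1, 0 did. Counts near the 2-fold edge and at low levels moved most.

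The 11 members higher in OE than in WT became 6 with a level minimum of 200 and 6 with a fold of 3. The 2 lower became 1 when scaled to total gene reads, housekeeping genes or Gapdh, where Lama1 fell short and Itgb7 did not, 5 with a fold of 1.5 and 0 with a fold of 3. The 1 member higher in KO than in WT became 2 with a level minimum of 10, with none and with a fold of 1.5. The 2 lower in KO became 4 with Gapdh scaling or a minimum of 10, 5 with no minimum or a fold of 1.5, and 0 with a pseudocount of 10, a minimum of 200, a minimum set on the 2 libraries compared or a fold of 3. The 3 members lower in OE than in KO became 1 with a fold of 3.

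The integrin median log2 ratio of OE over KO (1.15) became 0.69 with a level minimum of 10 and 0.55 with none. The laminin median of OE over KO (0.78) became 0.87 with housekeeping scaling, 0.88 with Gapdh, 0.89 with a minimum of 10, 0.48 with 200 and 1.0 with none. The laminin median of OE over WT (0.66) became 0.70 with housekeeping scaling, 0.60 with a minimum of 10 and 0.55 with 200, and that of KO over WT (-0.32) became -0.39 with Gapdh and -0.38 with a minimum of 10, but -0.12 with a minimum of 200 or one set on the 2 libraries compared. The integrin median of KO over WT (-0.30) became -0.21 with a minimum of 10 and -0.05 with none. With the longest transcript as length, the ratio of Itga3 to Itga6 became 1.67 in OE, 0.211 in KO and 0.401 in WT, against 2.98, 0.376 and 0.714 with merged exons. That of Itga5 to Itga6 became 0.646, 0.365 and 0.350 in OE, KO and WT, so its order turned in OE (1.21 with merged exons), and that of Itgav to Itga9 became 4.56, 1.77 and 1.09, so its order turned in WT (0.785). The alpha over the beta integrin total became 1.224 in OE, 1.222 in KO and 1.04 in WT, which turned the order in all 3 lines (0.974, 0.832 and 0.738). Minimums and folds change which genes are counted, and for the scalings the cause was not tested. Itgb8, Lamb3 and Lama4, with 8 to 35 reads outside OE, are limited by depth.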
